A study of Mus musculus with 40 samples.

Results

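The genes described here encode nuclear subunits of the mitochondrial respiratory chain and of ATP synthase in the brain of postnatal day 9 C57/Bl6 mice. They were chosen by symbol alone: the families Ndufa, Ndufb, Ndufc, Ndufs and Ndufv, the genes Sdha to Sdhd, the Uqcr family, Cox5 to Cox8 and the Atp5 family, on probe sets that carry exactly 1 gene symbol, with the probe set of highest mean taken for a gene. This gave 79 genes of the 19937 measured. By the prefix of the symbol, 35 were counted in complex I, 4 in complex II, 8 in complex III, 15 in complex IV and 17 in ATP synthase. The prefix need not match the complex in which a protein is found, and Ndufa4 and Ndufa4l2 were counted in complex I by it. They were covered by 102 probe sets, and 16 genes had several, up to 5 for Atp5l. A further 6 probe sets that match the symbols carry several symbols and were not used.

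Total RNA was hybridised to 40 Affymetrix arrays in 8 groups of 5. Brains of the Vehicle and IDR groups were removed 10 h after a dose of vehicle or of IDR-1018, an immunomodulatory peptide. The LPS group received lipopolysaccharide, a bacterial cell wall component that activates innate immunity, 6 h before removal, and its label names no dose of vehicle. For LPS with IDR, IDR-1018 was given 4 h before LPS and the brain was removed 6 h after LPS. These 4 groups are labelled uninjured brain. The remaining 4 groups received vehicle or the peptide 4 h before LPS, hypoxia-ischaemia (HI) 14 h after LPS, and the hemispheres were taken 6 h after HI: the left is labelled injured and the right uninjured. They are called HI injured, HI uninjured, HI IDR injured and HI IDR uninjured, and all 4 include LPS. The HI uninjured hemisphere therefore differs from Vehicle brain by LPS, by HI and by time. The labels do not state sex or whether each array is a separate animal. Xist, a transcript of female cells, read 12.06, 12.12, 5.59, 5.01 and 5.41 in the Vehicle arrays, so these are not all repeats of 1 sample. The p-values measure only the spread between these samples, part of which may be technical.

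Complex I takes electrons from NADH and complex II from succinate. Both pass them through ubiquinone to complex III and then through cytochrome c to complex IV, where oxygen is reduced. Complexes I, III and IV pump protons, and ATP synthase uses the gradient to make ATP, the main energy source of neurons. A few subunits are encoded by mitochondrial DNA and are not among these genes. The nuclear genes are textbook targets of the transcription factor NRF1, of the ETS family factor GABP, whose subunits are encoded by Gabpa and Gabpb1, and of YY1.

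Promoters of the genes were searched for motifs of these factors. RefSeq promoter sequences of assembly GRCm38.p6, from 250 bases before to 50 after each start, 300 bases in all, were found for 66 of the 79 genes and for 27025 genes in all. The NRF1 motif (the 10 bases in capitals that start with GCGCA or end with TGCGC below), read on both strands, was in the promoter of 16 of the 66 genes (24.2%) and of 5.19% of all genes. The ETS motif CCGGAAG was in 17 of the 66 (25.8%) and in 9.93% of all genes. The YY1 motif AAGATGGCG was in 7 of the 66 (10.6%) and in 1.64% of all genes. A match describes letters and does not show that a factor binds. The promoters below are of the minus strand, read 5′ to 3′, with motif letters in capitals. Cox6a1 and Cox8a are shown because they had the smallest p-values among complex IV genes over the 8 groups. Sdhd and Atp5g2 are shown because they varied in opposite directions between arrays of 1 group.

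Cox6a1 at chr5:115348909-115349208, with 2 NRF1 motifs and 1 ETS motif: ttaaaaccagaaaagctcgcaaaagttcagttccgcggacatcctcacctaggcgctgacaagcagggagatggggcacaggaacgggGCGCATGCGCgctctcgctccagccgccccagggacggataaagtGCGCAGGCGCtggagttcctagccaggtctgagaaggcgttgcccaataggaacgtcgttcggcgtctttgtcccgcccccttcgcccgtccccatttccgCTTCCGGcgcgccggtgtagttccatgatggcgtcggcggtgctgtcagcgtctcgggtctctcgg

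Cox8a at chr19:7217567-7217866, with 2 ETS motifs: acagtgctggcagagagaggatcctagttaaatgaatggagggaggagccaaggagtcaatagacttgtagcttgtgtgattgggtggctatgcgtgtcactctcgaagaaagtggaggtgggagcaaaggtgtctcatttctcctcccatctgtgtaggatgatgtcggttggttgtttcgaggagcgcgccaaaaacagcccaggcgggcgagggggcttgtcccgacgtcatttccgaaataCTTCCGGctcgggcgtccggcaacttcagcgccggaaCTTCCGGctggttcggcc

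Sdhd at chr9:50603800-50604099, with 1 NRF1 and 1 ETS motif: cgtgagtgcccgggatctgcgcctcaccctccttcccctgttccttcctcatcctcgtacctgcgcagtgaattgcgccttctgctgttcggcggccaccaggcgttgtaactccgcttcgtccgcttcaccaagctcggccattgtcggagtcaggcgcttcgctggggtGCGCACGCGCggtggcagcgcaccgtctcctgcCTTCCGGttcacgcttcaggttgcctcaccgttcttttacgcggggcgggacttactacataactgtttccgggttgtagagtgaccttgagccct

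Atp5g2 at chr15:102670998-102671297, with 1 NRF1 motif: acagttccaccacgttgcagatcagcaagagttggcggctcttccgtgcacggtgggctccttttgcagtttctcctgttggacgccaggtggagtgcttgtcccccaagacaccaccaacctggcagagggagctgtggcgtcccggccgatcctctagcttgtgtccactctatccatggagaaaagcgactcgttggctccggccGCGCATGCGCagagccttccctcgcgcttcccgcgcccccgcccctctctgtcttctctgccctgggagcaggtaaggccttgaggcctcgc

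On either strand CCGGAAG can read as its reverse complement CTTCCGG, the form capitalised here. No motif overlapped another within these 4 promoters.

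Signals are RMA values as deposited, on the log2 scale, so a difference of 1 is a doubling. RMA forces all arrays onto 1 distribution, and a change shared by every gene of an array would not show. Array medians lay between 6.99 and 7.13, and correlations between arrays between 0.986 and 0.998. Neuron markers were well expressed, with a mean per array between 11.45 and 11.71 over the 8 groups. Levels of different probe sets are not compared with each other. Xist varied widely between arrays within most groups, but was high in all 5 LPS arrays, from 11.82 to 12.15. Where a difference is given, it is the first group minus the second, with 5 arrays in each, from limma, and p-values were adjusted over all 19937 genes. A gene was called at an adjusted p under 0.05.

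No respiratory chain gene was called in any of the 12 comparisons of 2 groups. Over the 948 differences these make (79 genes in 12 comparisons), values ran from -0.46 to 0.26 on the log2 scale, at most 1.37-fold, and only 6 exceeded 0.3 in size. All 6 were lower in LPS with IDR than in LPS: Atp5l (-0.46), Atp5e (-0.39), Atp5g2 (-0.38), Atp5k (-0.34), Ndufb7 (-0.33) and Uqcr10 (-0.31). The 95% intervals were narrow enough to bound the changes. In the 12 comparisons, between 44 and 72 of the 79 genes had an interval wholly within 0.32 of no difference on the log2 scale. For 73 of the 79 genes the interval lay within 0.58 (1.5-fold) in all 12 comparisons. In these bulk samples, fewer cells of a type and less RNA per cell cannot be told apart.

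**Figure D1:**
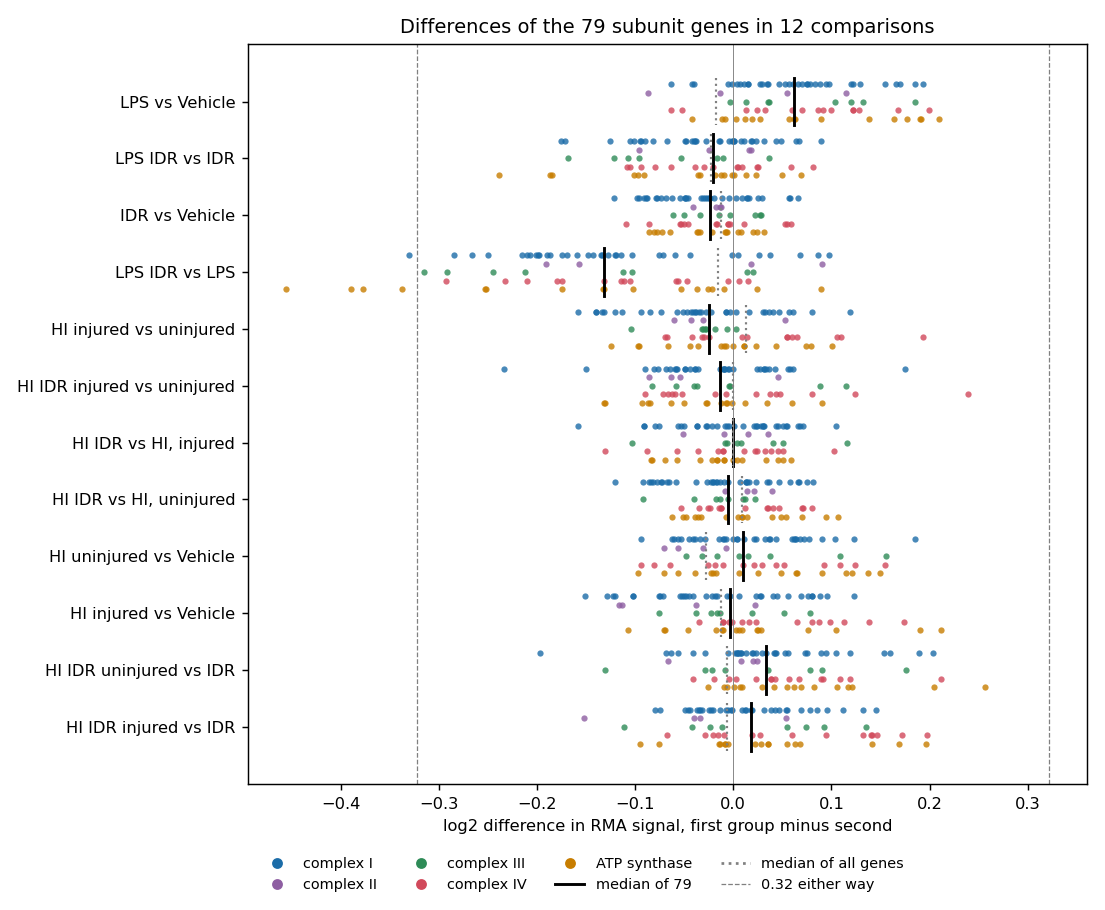
Each dot is the log2 difference in RMA signal of 1 of the 79 subunit genes in 1 comparison (rows), coloured by complex, with the median of the 79 (black line), the median of all genes (dotted line) and differences of 0.32 either way (dashed lines). No gene was called, and the median of the 79 stood farthest from 0 in LPS with IDR against LPS, at -0.13.

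After LPS alone no respiratory chain gene passed the test, and few of all genes did. Against Vehicle, 0.833% of all genes were called (166 genes) and 0 of the 79. With so small a share of all genes called, 0 of the 79 does not set these genes apart. At an unadjusted p under 0.05 there was 1 of the 79, against 6.22% of all genes. The median of the 79 was 0.06, with 66 of them positive, against a median of -0.02 for all genes. Xist was high in all LPS arrays but only in some Vehicle arrays. LPS and sex, as marked by Xist, cannot be fully told apart here. Cox6a1, a small nuclear subunit of complex IV, had the smallest p: its LPS arrays read 11.26, 11.06, 11.13, 11.06 and 11.48 and its Vehicle arrays 11.03, 10.90, 10.99, 10.96 and 11.12, a difference of 0.20 (95% interval 0.02 to 0.38, adjusted p = 0.682). Next were Cox7a2l, which takes part in forming supercomplexes, at 0.17 (interval -0.02 to 0.36, adjusted p = 0.885), and Ndufa1, a small membrane subunit of complex I, at 0.19 (interval -0.03 to 0.42, adjusted p = 0.896). None passed the threshold. With the peptide given first, LPS with IDR against IDR, 1.47% of all genes were called and 0 of the 79, 2 of which had an unadjusted p under 0.05, against 10.5% of all genes. These were Atp5l, a membrane subunit of ATP synthase, at -0.24 (interval -0.44 to -0.03, adjusted p = 0.377), and Ndufa4l2, at -0.17 (interval -0.33 to -0.01, adjusted p = 0.420). Cox7a1 followed at -0.11 (interval -0.23 to 0.01, adjusted p = 0.524).

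The peptide alone, IDR against Vehicle, gave 0 calls among the 79 and 0% among all genes, and 0 of the 79 had an unadjusted p under 0.05, against 1.61% of all genes. The median of the 79 was -0.02. Smallest were the p-values of Ndufb8 (-0.12, interval -0.26 to 0.02), Cox5a (-0.11, interval -0.26 to 0.04) and Atp5g1 (-0.08, interval -0.19 to 0.03), all with an adjusted p of 1.00. Atp5g1, 1 of the genes for the c ring that turns in the membrane, was the only one of the 79 whose groups did not overlap, against 0.296% of all genes. Its 5 IDR arrays lay between 12.31 and 12.35 and its Vehicle arrays read 12.37, 12.38, 12.50, 12.37 and 12.40. A second probe set of Atp5g1 did not follow the first over the arrays (r = -0.06).

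The difference nearest to a shared one was between LPS with IDR and LPS. Here 27 of the 79 genes had an unadjusted p under 0.05, all lower with the peptide, which is 34.2% of them, against 13.4% of all genes. None was called, nor was any of all genes (0%). The median of the 79 was -0.13, with 65 negative, against -0.02 for all genes. All complexes had a negative median: -0.13 for ATP synthase, -0.11 for complex IV, -0.13 for complex I, -0.07 for complex II and -0.16 for complex III. Ndufa8, an accessory subunit of complex I, read 10.96, 10.87, 10.83, 10.90 and 10.97 in LPS, and 10.66, 10.64, 10.80, 10.77 and 10.67 in LPS with IDR. Its groups did not overlap, and its difference was -0.20 (interval -0.32 to -0.08, adjusted p = 0.326). Uqcrq, a small subunit of complex III, differed by -0.29 (interval -0.47 to -0.11) and Ndufa2 of complex I by -0.22 (interval -0.35 to -0.08), both with an adjusted p of 0.326. Groups did not overlap for 4 of the 79 (Ndufa8, Ndufa2, Atp5o and Cox7a2), 5.06%, against 2.76% of all genes. Atp5l had the largest difference, at -0.46 ± 0.13 (SE).

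Other measures moved with this difference. The mean of 53 cytosolic ribosomal protein genes differed by -0.13, the same as the mean of the 79. Xist was 11.96 ± 0.13 (SD) in LPS and 8.09 ± 3.68 in LPS with IDR, where its arrays read 5.54, 5.21, 12.23, 12.01 and 5.46. Peptide and sex, as marked by Xist, cannot be fully told apart in this comparison. With Xist as a covariate 2 of the 79 had an unadjusted p under 0.05, and with the mean of the ribosomal protein genes 3 did. Leaving out 1 array at a time gave between 12 and 39. The interaction, the LPS difference with the peptide minus that without it, used the same LPS arrays and had a median of -0.09 over the 79. It called 0 of them and 0.00502% of all genes, and 4 of them had an unadjusted p under 0.05, against 4.38% of all genes. The smallest p-values were those of Cox6a1 at -0.26 (interval -0.50 to -0.03), Atp5l at -0.45 (interval -0.86 to -0.04) and Ndufa13 at -0.20 (interval -0.39 to -0.01), each with an adjusted p of 0.860.

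In the injured hemisphere 6 h after HI no respiratory chain gene differed past the threshold from the uninjured hemisphere, while other genes did. HI injured against HI uninjured gave 2.99% of all genes called (596) and 0 of the 79, and 0 of the 79 at an unadjusted p under 0.05, against 15% of all genes. The median of the 79 was -0.02. Cox7b2, an isoform of a complex IV subunit with low signal here, read 4.95, 4.93, 4.75, 5.12 and 4.95 in HI injured and 4.52, 4.87, 4.74, 4.96 and 4.65 in HI uninjured. The difference was 0.19 (interval -0.003 to 0.39, adjusted p = 0.343), and the groups overlapped. Ndufb3, a membrane-arm subunit of complex I, read 7.94, 7.90, 8.23, 7.94 and 7.90 in HI injured and 8.13, 8.14, 8.25, 8.13 and 8.02 in HI uninjured. In 4 of the 5 injured arrays it lay below every uninjured array, and array 3 lay among them. Its difference was -0.16 (interval -0.32 to 0.01, adjusted p = 0.356). Ndufv3, of the electron-input module of complex I, was at -0.14 (interval -0.32 to 0.04, adjusted p = 0.476).

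Arrays of the same number from both hemispheres without peptide deviated together, with correlations from 0.39 to 0.65 over all genes. Fitted with the number as a block, 2032 of all genes (10.2%) were called and still 0 of the 79, with a smallest adjusted p of 0.0846. The intervals of 77 of the 79 genes were then within 0.32 of no difference, against 60 without the block. Neuron markers were lower in the same arrays. Their mean per array was 11.45 to 11.54 in HI injured and 11.59 to 11.71 in HI uninjured, with no overlap, and Neurod6, a transcription factor of cortical excitatory neurons, was lower, at -0.73 ± 0.14 (SE, adjusted p = 0.0112), the only one of 14 neuron markers called without the block. With the block 4 of the 14 were called lower: Neurod6, Slc17a7, Snap25 and Tubb3. Whether the cell makeup bears on the respiratory chain values was not tested.

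With the peptide, HI IDR injured against HI IDR uninjured gave 2.5% of all genes called and 0 of the 79. The same pair, Cox7b2 and Ndufb3, were the 2 at an unadjusted p under 0.05, against 14.4% of all genes. Cox7b2 read 4.99, 4.93, 5.01, 4.83 and 5.10 in injured and 4.87, 4.80, 4.79, 4.56 and 4.64 in uninjured arrays, a difference of 0.24 (interval 0.08 to 0.40, adjusted p = 0.129). Ndufb3 read 7.90, 7.69, 7.86, 7.99 and 7.66 in injured and 8.06, 8.06, 8.07, 7.93 and 8.16 in uninjured arrays, a difference of -0.23 (interval -0.40 to -0.07, adjusted p = 0.142). In both genes 1 array kept the groups overlapping. Ndufa3 of complex I followed at -0.15 (interval -0.34 to 0.04, adjusted p = 0.511). The peptide itself, HI IDR against HI, gave 0 of 79 and 0% of all genes in the injured and in the uninjured hemisphere, and 0 of the 79 at an unadjusted p under 0.05 in either. Against 1.39% and 1.89% of all genes at that level, the medians of the 79 were 0.0001 and -0.005. The smallest p-values were those of Ndufb3 (-0.16), Cox7a1 (-0.13) and Atp5g1 (-0.08) in the injured, and Uqcrb (-0.09), Ndufv2 (-0.09) and Ndufb3 (-0.08) in the uninjured hemisphere, each with an adjusted p of 1.00. The interaction of injury and peptide gave 0 of the 79 and 0% of all genes, with 0 of the 79 at an unadjusted p under 0.05, against 1.81% of all genes. Smallest there were the p-values of Cox8c (-0.17), Ndufa5 (-0.15) and Ndufc2 (0.07).

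Against brain without LPS or HI, the injured hemisphere differed in many genes and again not in these. HI injured against Vehicle gave 8.34% of all genes called (1663) and 0 of the 79, with 1 at an unadjusted p under 0.05, against 21.4% of all genes. The median of the 79 was -0.003. Cox6a1 read 11.17, 11.07, 11.22, 11.07 and 11.33 in HI injured against the Vehicle values above, with overlap, a difference of 0.17 (interval 0.03 to 0.32, adjusted p = 0.146). Cox8a, the widely expressed form of subunit VIII of complex IV, was at 0.14 (interval -0.01 to 0.29, adjusted p = 0.288), and Ndufs6, an iron-sulfur-fraction subunit of complex I, at -0.12 (interval -0.27 to 0.03, adjusted p = 0.340). HI IDR injured against IDR gave 5.87% of all genes called (1171) and 0 of the 79, with 2 at an unadjusted p under 0.05, against 18.8% of all genes. These were Cox7b2 at 0.20 (interval 0.06 to 0.34, adjusted p = 0.0998) and Cox5b at 0.13 (interval 0.005 to 0.26, adjusted p = 0.245). Cox8a followed at 0.14 (adjusted p = 0.286).

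The uninjured hemispheres gave no calls among the 79 either, and few among all genes. HI uninjured against Vehicle had 0.436% of all genes called and 0 of the 79, with 1 at an unadjusted p under 0.05, against 6.58% of all genes. Ndufb3 was 8.14 ± 0.08 (SD) against 7.95 ± 0.19, a difference of 0.19 (interval 0.0001 to 0.37, adjusted p = 0.759), Cox6a1 was at 0.11 and Atp5g3 at -0.10. HI IDR uninjured against IDR had 0.201% of all genes called and 0 of the 79, with 3 at an unadjusted p under 0.05, against 5.28% of all genes. Cox8a differed by 0.21 (interval 0.05 to 0.37, adjusted p = 0.613), Ndufb3 by 0.19 (interval 0.03 to 0.35, adjusted p = 0.759) and Ndufa3 by 0.20 (interval 0.03 to 0.38, adjusted p = 0.781). The comparisons with Vehicle share the Vehicle arrays, and those with IDR share the IDR arrays.

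A test over all 8 groups asked for any difference at all. It called 15% of all genes (2993) and 0 of the 79, of which 3 had an unadjusted p under 0.05, against 24.3% of all genes. Cox8a came nearest, with an adjusted p of 0.0710. Its group means ran from 11.63 ± 0.14 (SD) in LPS with IDR, through 11.66 ± 0.11 in IDR, 11.68 ± 0.13 in Vehicle, 11.80 ± 0.07 in HI IDR injured, 11.80 ± 0.11 in HI uninjured, 11.81 ± 0.11 in LPS and 11.82 ± 0.07 in HI injured to 11.87 ± 0.12 in HI IDR uninjured. The widest step, between Vehicle and HI IDR injured, was smaller than the SD of Vehicle and larger than that of HI IDR injured, and other neighbours in this order differed by less than their SDs. Ndufb3 had an adjusted p of 0.188 and Cox6a1 of 0.189. Cox8a was called with arrays weighted by quality (adjusted p = 0.00784) and with the array number as a block (adjusted p = 0.0253). It was also called without Vehicle array 3 (adjusted p = 0.0306), IDR array 5 (0.0287), LPS with IDR array 3 (0.0280), HI uninjured array 1 (0.0496) or HI IDR uninjured array 4 (0.0398), and Ndufb3 without LPS with IDR array 1 (adjusted p = 0.0446).

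**Figure D2:**
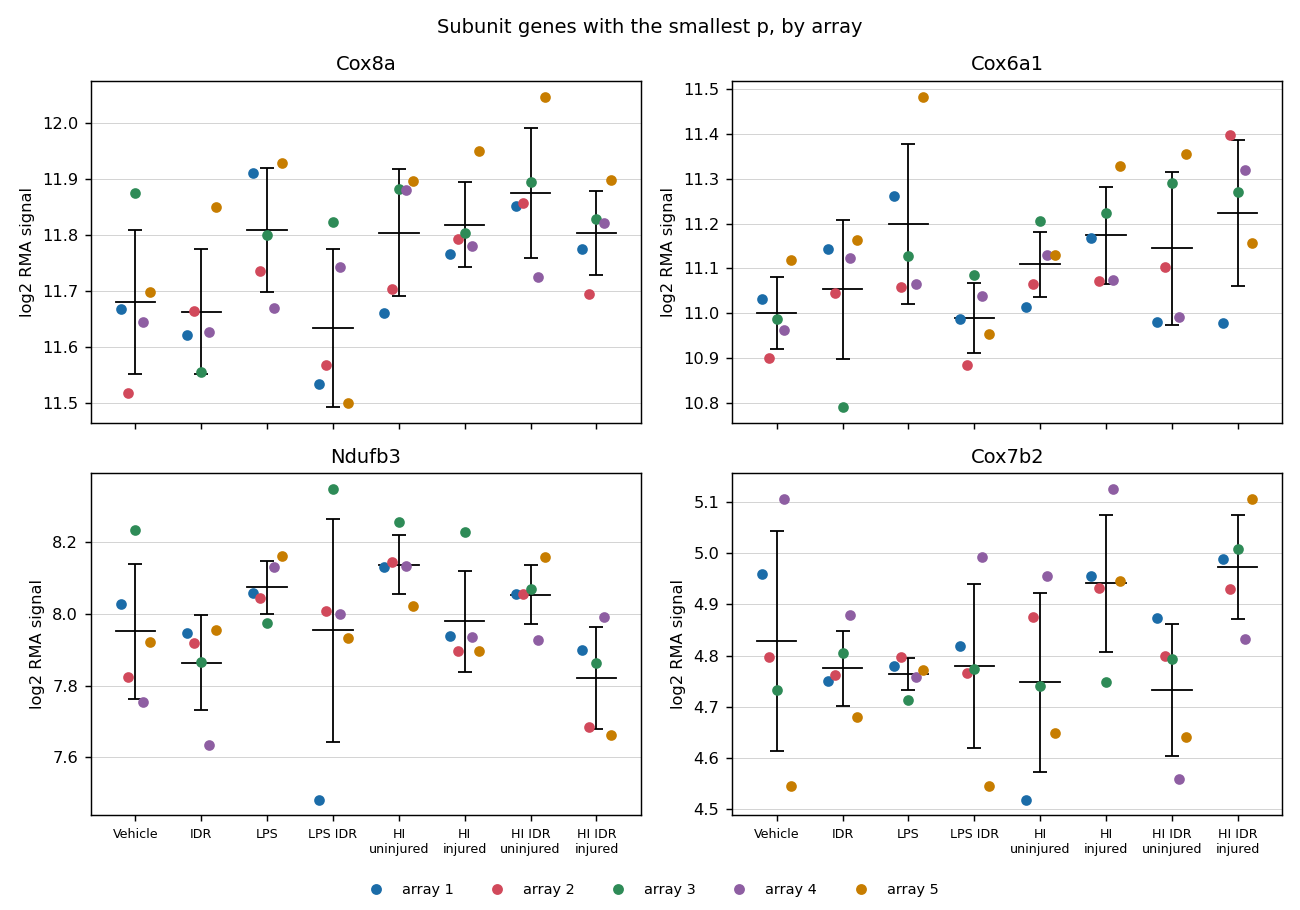
Log2 RMA signal of Cox8a, Cox6a1, Ndufb3 and Cox7b2 on each of the 40 arrays, by group, with dots coloured by array number and the mean and SD of each group in black. In all 4 genes the groups overlap in each of the 12 comparisons. Ndufb3 was low in the HI IDR injured arrays, between 7.66 and 7.99, below all HI uninjured arrays, a pair of groups not compared.

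Several subunits exist as tissue isoforms, and none of these was called either. Ndufa4l2, known to be induced by hypoxia in other cells in place of Ndufa4, was not called at 6 h after HI. Injured against uninjured it was at -0.14 (interval -0.36 to 0.08, group means 6.52 ± 0.17 and 6.66 ± 0.19, SD), and Ndufa4 was at -0.05. Over the 40 arrays Ndufa4l2 ran from 6.33 to 6.86 and Ndufa4 from 10.67 to 11.14. Cox4i2, likewise known as the hypoxic form of Cox4i1, falls outside the symbol rule and differed by 0.01 between hemispheres, and Cox4i1 by -0.04. Cox6a2, Cox7a1 and Cox8b, the forms of heart and skeletal muscle, had differences within -0.29 and 0.15 in the 12 comparisons. Cox6a2 ran from 7.72 to 8.52 over the arrays, Cox7a1 from 7.03 to 7.75 and Cox8b from 5.88 to 6.46. Of 11 striated muscle markers, such as Ckm and Myh1, 0 were called in any comparison, and their mean per array stayed between 6.30 and 6.56. The forms known mainly from testis, Cox6b2 (6.35 to 7.04), Cox7b2 (4.52 to 5.12) and Cox8c (6.15 to 6.80), had low signal, at which probes say little about the presence of a transcript. Their widely expressed counterparts Cox6b1 (11.81 to 12.36) and Cox7b (12.18 to 12.58) had differences of at most 0.11 in size in the 12 comparisons, and Cox8a (11.50 to 12.05) between -0.17 and 0.21. Cox7a2 (10.97 to 11.47), the counterpart of Cox7a1, differed by at most 0.11.

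The respiratory chain genes varied more between arrays of 1 group than between groups. Groups accounted for a median of 13.1% of the variance of the 79 genes, and 20.9% for all genes. The mean of the 79 per array ran from 10.22 to 10.58. In Vehicle it read 10.34, 10.33, 10.35, 10.32 and 10.50, in IDR 10.35, 10.36, 10.26, 10.30 and 10.44, and in LPS 10.49, 10.35, 10.38, 10.38 and 10.58. In LPS with IDR it read 10.24, 10.29, 10.40, 10.34 and 10.27. HI uninjured arrays read 10.30, 10.33, 10.49, 10.31 and 10.50, and HI injured arrays 10.32, 10.33, 10.43, 10.26 and 10.52. HI IDR uninjured arrays read 10.33, 10.39, 10.46, 10.22 and 10.52, and HI IDR injured arrays 10.28, 10.28, 10.48, 10.45 and 10.37. Array 5 was the highest in 6 of the 8 groups and array 3 in the other 2, and all groups overlapped.

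**Figure D3:**
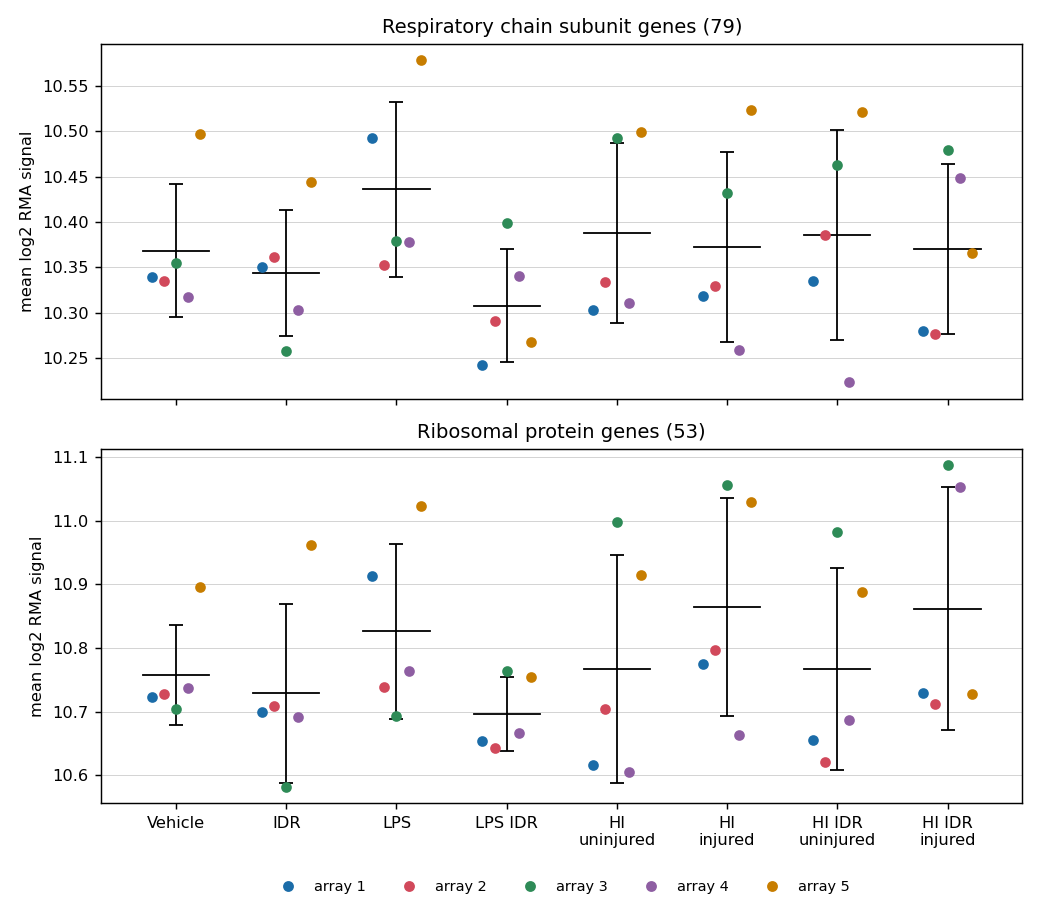
Mean log2 RMA signal per array of the 79 respiratory chain subunit genes (top) and of 53 cytosolic ribosomal protein genes (bottom), by group, with dots coloured by array number and the mean and SD in black. The arrays high in the top panel are mostly high in the bottom panel, while the injured groups have a higher mean than their uninjured counterparts in the bottom panel, by 0.10 in both pairs, and not in the top panel.

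This spread ran along 1 axis. Within groups, the first principal component held 68.2% of the variance of the 79 genes, and 28.8% of that of all genes. The mean of the 79 followed that of the 53 ribosomal protein genes over the 40 arrays, with group means removed (Pearson's r = 0.87, Spearman's rho = 0.84, and r = 0.87 without the 2 arrays farthest from the median). These points share the array and its RNA, and the relation is a description. Of the 79 genes, 29.1% had an r above 0.8 with the ribosomal mean, and 4.69% of all genes did. Atp5e, the epsilon subunit of the rotor stalk, is the clearest case: in HI uninjured its arrays read 8.57, 8.45, 9.34, 8.34 and 9.22, and in HI injured 8.38, 8.34, 9.04, 8.24 and 9.29. Arrays 3 and 5 of both hemispheres were high, and the other arrays low. Atp5g2, a c ring gene, was at 11.97 and 11.81 in the same 2 arrays of HI uninjured and between 10.92 and 11.09 in the other 3. In all, 13 of the 79 genes (16.5%) had an SD within groups above the 95th percentile of all genes, led by Atp5e (0.40), Atp5g2 (0.38), Atp5l (0.37) and Atp5k (0.32).

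Subunits of 1 complex did not follow the axis alike. With the ribosomal mean, 57 of the 79 genes correlated positively and 22 negatively, against 10538 and 9399 of all genes. An r above 0.5 was found for 44 of the 79. An r below -0.5 was found for 11 of the 79 (13.9%), against 17.5% of all genes. In complex II, Sdha, the flavoprotein that oxidises succinate (r = -0.80), and Sdhd, a membrane anchor (r = -0.90), ran against the ribosomal mean. Sdhb, the iron-sulfur subunit (r = 0.67), and Sdhc, the other anchor (r = 0.81), ran with it. In the catalytic F1 part of ATP synthase, Atp5a1 (r = -0.69), Atp5b (r = -0.93), Atp5c1 (r = -0.59) and Atp5d (r = -0.69) ran against it and Atp5e with it (r = 0.94). All 5 small membrane subunits of ATP synthase (Atp5j2, Atp5k, Atp5l, Atp5md and Atp5mpl) ran with it, with r from 0.77 to 0.91. Of the 3 c ring genes, Atp5g2 ran with it (r = 0.96), Atp5g1 less so (0.34) and Atp5g3 against it (-0.31). In complex I, Ndufs1, the largest core subunit (r = -0.51), Ndufs7 (-0.82) and Ndufa9 (-0.68) ran against it. In complex III, Uqcrc2 (-0.68) and Uqcrb (-0.60) did. No gene of complex IV had an r below -0.5. The genes with r above 0.5 had a median gene span of 7128 bp, and those below -0.5 of 9102 bp. An NRF1 motif was in 20.5% of the 39 promoters found for the first set and 42.9% of the 7 for the second, too few to compare.

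**Figure D4:**
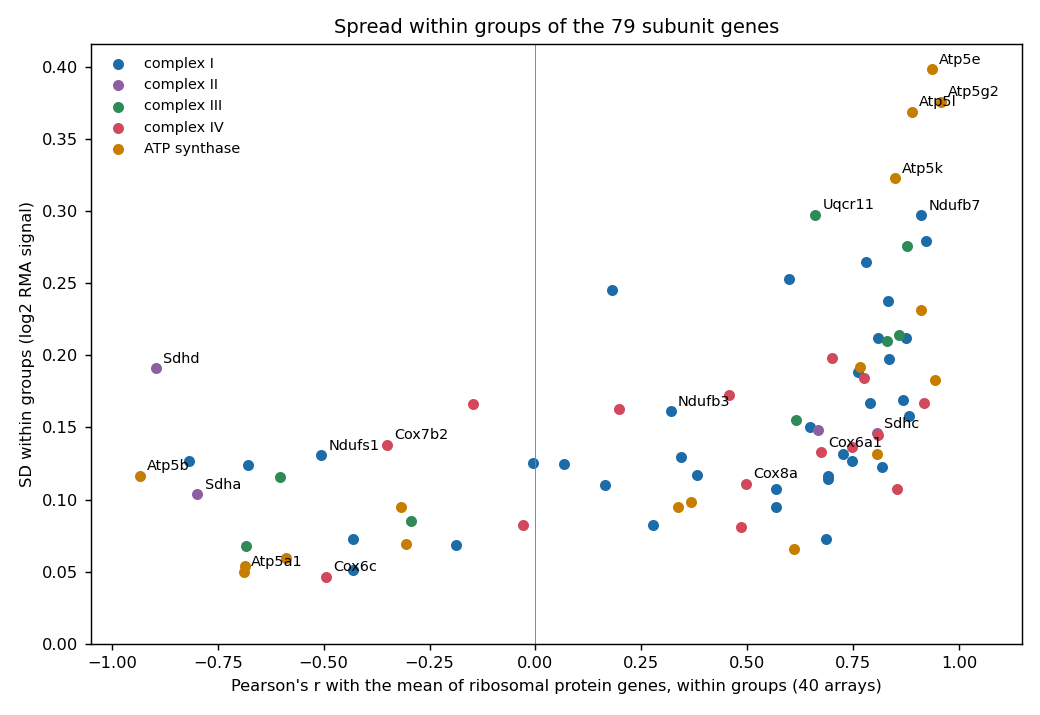
SD within groups (log2 RMA signal) of each of the 79 genes against its Pearson correlation with the mean of the ribosomal protein genes within groups, coloured by complex. Genes with a large SD sit at the right, led by Atp5e, Atp5g2 and Atp5l, and Atp5b and Sdhd lie at the far left.

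Between hemispheres the 2 means were set side by side. The mean of the ribosomal protein genes was higher by 0.10 in HI injured than in HI uninjured and by 0.10 in the pair with peptide, while the mean of the 79 differed by -0.02 in each. Both differences lay within the spread between arrays of a group, and whether they differ from each other was not tested. Individually, 1 of the 53 ribosomal genes was called in each of these. With the ribosomal mean as a covariate, chosen after seeing the data, 5 of the 79 (6.33%) were called in HI injured against HI uninjured, against 7.78% of all genes in that fit, with Atp5e at -0.37 and Atp5g2 at -0.34. Without the covariate Atp5e was at -0.13 (interval -0.62 to 0.37), and neither gene was called. The covariate fit called 4 (5.06%) in the pair with peptide, against 10.3% of all genes, 2 (2.53%) in HI injured against Vehicle, against 10% of all genes, and 2 (2.53%) in HI IDR injured against IDR, against 16.7% of all genes. The share of the 79 was below that of all genes each time, and nearest to it in HI injured against HI uninjured. Some of these comparisons share arrays, so they are not all independent. What the ribosomal difference itself reflects was not tested.

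The remaining genes of the 79 are named here by complex, some with their range over the 40 arrays. In complex I these were the core subunits Ndufv1 (10.34 to 10.71), Ndufv2 (11.54 to 11.86), Ndufs3 (10.96 to 11.30) and Ndufs8 (10.45 to 11.12), and the accessory subunits Ndufa5, Ndufa6, Ndufa7, Ndufa10, Ndufa11, Ndufa12, Ndufb2, Ndufb5, Ndufb6, Ndufb7, Ndufb9, Ndufb10, Ndufb11, Ndufc1, Ndufs4 and Ndufs5. In complex III they were the core protein Uqcrc1 (10.79 to 11.23), the Rieske iron-sulfur protein Uqcrfs1 (8.65 to 9.22), Uqcrh, Uqcr10 and Uqcr11. In complex IV it was Cox6c, which had the smallest SD within groups of the 79, at 0.05. In ATP synthase they were Atp5h, Atp5j and Atp5pb of the peripheral stalk, and for Atp5h and Atp5pb other probe sets followed the chosen one weakly (lowest r of 0.16 and 0.12).

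Some genes around the respiratory chain were called in the injured hemisphere. Of 17 measured genes for mitochondrial biogenesis and the expression of mitochondrial DNA, 3 rose in HI injured against HI uninjured (17.6% of the list, against 2.99% of all genes) and 0 fell, and their list had a median of 0.10, against 0.01 for all genes. Nrf1 read 8.21, 8.38, 8.38, 8.27 and 8.37 in HI injured and 7.86, 7.98, 8.00, 7.89 and 8.02 in HI uninjured, a rise of 0.37 ± 0.06 (SE, adjusted p = 0.00662) without overlap. Gabpb1 read 8.85, 8.70, 8.79, 8.73 and 8.58 against 8.47, 8.42, 8.34, 8.42 and 8.20, a rise of 0.36 ± 0.07 (SE, adjusted p = 0.0174), and without array 1 of HI injured its adjusted p was 0.0541. Gabpa rose by 0.24 ± 0.06 (SE, adjusted p = 0.0362), but it passed in only 1 of the 10 fits that left out an array, where the adjusted p ran from 0.0469 to 0.0975, and not with Xist as a covariate or with arrays centred on their medians. Tfam, which packages mitochondrial DNA, was at 0.19 (adjusted p = 0.404), and Ppargc1a, the coactivator of this programme, at -0.09 (adjusted p = 0.746). With the array number as a block, Slirp was also called higher and Tfb1m lower.

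Between hemispheres with the peptide, Gabpb1 was called again, while Nrf1 and Gabpa (adjusted p = 0.134) were higher without passing the threshold. The interaction of injury and peptide called 0% of all genes, so these calls do not show a difference made by the peptide. In HI IDR injured against HI IDR uninjured 2 of the 17 rose (11.8%, against 2.5% of all genes). Gabpb1 was higher by 0.37 ± 0.07 (SE, adjusted p = 0.0172) and Polg2, the accessory subunit of the mitochondrial DNA polymerase, by 0.31 ± 0.07 (adjusted p = 0.0438), but Polg2 passed in only 1 of 10 fits that left out an array, with adjusted p up to 0.117, and not with arrays centred. Nrf1 was at 0.25 there (adjusted p = 0.114). In HI injured against Vehicle 3 rose and 1 fell (23.5% in all, against 8.34% of all genes): Nrf1 by 0.40 ± 0.06 (SE, adjusted p = 0.00112), Gabpb1 by 0.30 ± 0.06 (adjusted p = 0.00838) and Gabpa by 0.23 ± 0.06 (adjusted p = 0.0235), while Tfb1m, a mitochondrial rRNA methyltransferase, was lower at -0.42 ± 0.08 (adjusted p = 0.00515). The call of Gabpa was lost without array 1 of HI injured and without array 2 or array 4 of Vehicle, with adjusted p up to 0.0616, and with Xist as a covariate. In HI IDR injured against IDR, where 5.87% of all genes were called, Gabpb1 (0.40), Polg2 (0.33) and Nrf1 (0.24) rose. Nrf1 passed there in only 1 of 10 fits that left out an array, with adjusted p up to 0.113, and not with arrays centred. With the array number as a block, the calls of Polg2 and Nrf1 were lost there and that of Gabpb1 held.

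Of 37 measured assembly factors, which build the complexes but are not part of them, 2 fell in HI injured against Vehicle and 0 rose (5.41%, against 8.34% of all genes). Bcs1l, which inserts the Rieske protein into complex III, read 8.92, 8.86, 8.88, 8.88 and 8.84 in HI injured and 9.39, 9.35, 9.40, 9.37 and 9.31 in Vehicle. It fell by 0.49 on the log2 scale (SE 0.05, adjusted p = 6.01e-05). The HI uninjured arrays read 9.24, 9.08, 9.01, 9.14 and 9.00, also below all Vehicle arrays. Bcs1l was lower in HI IDR injured than in IDR at -0.35 ± 0.07 (SE, adjusted p = 0.00851), a call lost with the array number as a block. Between hemispheres it was at -0.22 (adjusted p = 0.0857, and 0.0243 with the array number as a block), with no overlap. The other was Ndufaf3, of complex I assembly, at -0.25 ± 0.06 (adjusted p = 0.0220) in HI injured against Vehicle, a call lost without array 1 of HI injured or array 1 of Vehicle (adjusted p up to 0.0631), or with Xist as a covariate. With the array number as a block, Ndufaf2 was also called lower between hemispheres, and Timmdc1 in HI injured against Vehicle. Uqcrfs1, the Rieske protein that Bcs1l inserts, was not called: it was at -0.04 (interval -0.24 to 0.17) in HI injured against Vehicle.

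**Figure D5:**
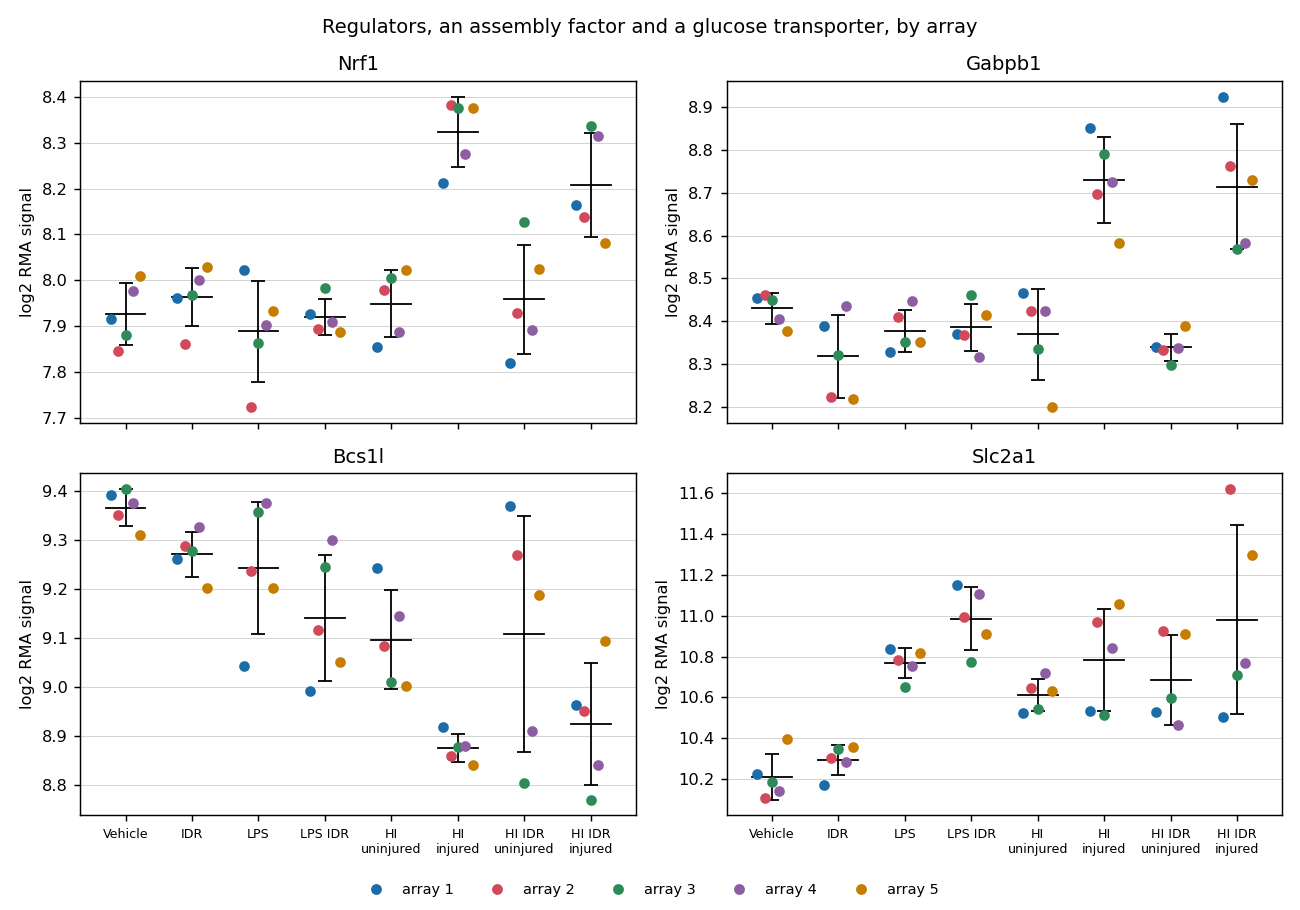
Log2 RMA signal of the regulators Nrf1 and Gabpb1, the assembly factor Bcs1l and the glucose transporter Slc2a1 on each of the 40 arrays, by group, with dots coloured by array number and the mean and SD of each group in black. The 5 HI injured arrays of Nrf1 (8.21 to 8.38) lie above all Vehicle arrays, those of Bcs1l (8.84 to 8.92) lie below them, and Slc2a1 is higher in LPS than in Vehicle.

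The tricarboxylic acid cycle, which feeds electrons to the chain, gave 0 calls among 13 measured genes in every comparison, as did the 13 measured subunits and carriers outside the symbol rule, such as cytochrome c. Glycolysis genes were called in part. Slc2a1, the glucose transporter of endothelium and glia, rose in LPS against Vehicle by 0.56 ± 0.07 (SE, adjusted p = 0.000392), in LPS with IDR against IDR by 0.69 ± 0.07 (adjusted p = 0.000202) and in HI injured against Vehicle by 0.57 ± 0.11 (adjusted p = 0.00400). Endothelium markers moved in the same LPS arrays. Of 8, Tek fell in LPS against Vehicle, at -0.85, and Tek (-0.80) and Kdr (-0.63) fell in LPS with IDR against IDR. Their mean per array was 8.12 to 8.65 in LPS, 8.34 to 8.67 in LPS with IDR, 8.64 to 8.76 in Vehicle and 8.58 to 8.83 in IDR, and the part of this in the Slc2a1 values was not tested. Pdk4, which restrains pyruvate entry into the cycle, rose in HI injured against HI uninjured by 0.54 ± 0.08 (adjusted p = 0.00369) and Pfkfb3, an activator of glycolysis, by 0.33 ± 0.06 (adjusted p = 0.0130), and with the array number as a block 5 of the 23 glycolysis and lactate genes measured were called higher there (also Hk2, Slc16a3 and Slc2a3). In HI injured against Vehicle 5 of the 23 rose (21.7%, against 8.34% of all genes) and 0 fell. The uninjured hemisphere also had calls against Vehicle, where 0.436% of all genes were called. Slc2a1 rose there by 0.40 ± 0.07 (adjusted p = 0.0168) and Aldoc by 0.31 ± 0.06 (adjusted p = 0.0267). With 1 array left out, Slc2a1 held in 5 of 10 fits and Aldoc in 3. The call of Aldoc was also lost with the array number as a block or Xist as a covariate. That of Slc2a1 was lost with all 8 groups in 1 fit. Of 50 mitochondrial ribosomal protein genes, 3 rose in HI injured against HI uninjured (6%, against 2.99% of all genes) and 0 fell (Mrpl39 by 0.29, Mrps31 by 0.26 and Mrpl9 by 0.23). The call of Mrpl9 did not hold in any of the 10 fits that left out an array, Mrps31 held in 2 and Mrpl39 in 6, and none of the 3 held with arrays centred. Markers of other cell types moved in the same arrays: in HI injured against Vehicle, 4 of 9 microglia markers rose and 1 fell, and 2 of 8 endothelium markers rose. Their part in these values was not tested.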

How the data were processed

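Total RNA of 40 brain samples was measured on 1-colour Affymetrix arrays. The deposited values are log2 RMA signals, 1 per probe set and array. RMA and the affy package are named in the submitters' processing notes without versions, and the genome build is not given in the sources used here. RMA corrects background, quantile normalises and summarises probes. Of 34760 probe sets, 21640 carry 1 symbol in the platform annotation, 1321 several and 11799 none. Only the first kind entered the fits; 954 genes had more than 1 such probe set, and the brightest on average stood for the gene. No signal filter was applied to the resulting 19937 genes.

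Groups came from the labels. Linear models (limma 3.58.1 under R 4.3.3; the data.table package, version 1.17.8, read the files) were fitted on the arrays of the groups compared; interactions used 20 arrays and the test over 8 groups all 40. Calls required an adjusted p under 0.05, by the Benjamini-Hochberg method over all genes, and intervals are 95%. Precision is limited by the number of arrays. The code was tested on simulated data. The members, lists and tests were chosen with earlier results of these data known. Where fewer than 3 respiratory chain genes were called in a comparison, the 3 of smallest p were named; of each list of related genes, up to 4 called genes. Genes of a few lists were named outside this rule where their values bear on another (Tfam, Ppargc1a). Figures used Python 3.11.15 with matplotlib 3.10.9.

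The labels number the arrays but state no pairing. Between HI injured and HI uninjured all 5 numbers correlated above 0.1 in deviations from the group means (0.39 to 0.65). The own number gave the highest correlation each time. Between the hemispheres with peptide, numbers 4 and 5 correlated at 0.094 and 0.088, and the own number was not the highest for them. Xist was low in array 4 of HI injured and HI uninjured (5.39 and 5.41) and in arrays 3 and 4 of both HI IDR groups (5.34 to 5.67). It was high in their other arrays. In HI injured against Vehicle all 5 were also above 0.1 (0.12 to 0.44), but the own number was the highest for only 3. Xist in array 3 read 5.59 in Vehicle and 11.23 in HI injured, so equal numbers there need not be 1 animal. A block across these groups rests on no known pairing. In the other comparisons not all 5 numbers were above 0.1. Alternatives were all 8 groups in 1 fit, a minimum mean signal of 6, the mean over probe sets, arrays centred on their medians, Xist as covariate, the array number as block, array weights, each array left out in turn, and, added after seeing the data, the ribosomal protein mean as covariate.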

Additional observations from a re-analysis of the deposited data

Results flagged for a closer look

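Among 88 sets of 5 arrays (11 measures in 8 groups), 8 had an array that stood apart from the other 4 by Dixon's test; chance gives about 1 in 20. The mean of the 79 genes was 10.50 in Vehicle array 5, with the next array at 10.35. Array 5 of Vehicle also stood apart in Cox7a1, at 7.74 against 7.35 for the next. Array 5 of IDR stood apart in Atp5g2, at 11.81 against 11.07, and on the low side in Atp5b, at 12.71 against 12.90. Ndufb3 was low in IDR array 4, at 7.63 against 7.87, and high in HI injured array 3, at 8.23 against 7.94. Cox8a was high in HI injured array 5, at 11.95 against 11.80, and Ndufa4l2 low in LPS array 4, at 6.36 against 6.59.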

How the results depend on the processing

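In the comparisons of 2 groups and the interactions, 0 of the 79 genes was called under every alternative with all 8 groups fitted at once, the signal minimum, the mean over probe sets, centring, the Xist covariate, the replicate block or any array left out, for which the count ran from 0 to 0. Array weights called 1, Cox7b2, in HI IDR injured against IDR. With the ribosomal mean as covariate, added after seeing the data, 5 were called in HI injured against HI uninjured, 4 in HI IDR injured against HI IDR uninjured, 2 in HI injured against Vehicle and 2 in HI IDR injured against IDR. In the test over 8 groups, array weights called 1, the replicate block 1, the ribosomal covariate 7, and leaving out 1 array between 0 and 1 (1 without Vehicle 3, IDR 5, LPS with IDR 1 or 3, HI uninjured 1 or HI IDR uninjured 4). The cause was not tested. Medians of the 79 kept their direction or moved by less than the spread. Over all genes, the alternatives called 503 to 2032 in HI injured against HI uninjured, 481 to 2047 with the peptide, 917 to 3210 in HI injured against Vehicle, 498 to 3333 in HI IDR injured against IDR, 52 to 276 and 21 to 67 in the uninjured hemispheres against Vehicle and IDR, 86 to 212 in LPS against Vehicle, 250 to 384 in LPS with IDR against IDR and 2918 to 4919 over 8 groups. Low signal, as in Cox7b2, limits the precision of its fold.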
